A study of Mus musculus with 25 samples.

Results

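Cdk6, Ccnd2, Ccnd3 and Cdkn1a are 4 cell cycle genes whose acetylated chromatin contacts were followed in mouse CD8+ T cells, with and without IL-2 and with and without parts of a distant enhancer cluster. Each gene was represented by its annotated mm10 span extended 5 kb on each side, and every listed pair of 1 kb bins with an anchor in that window was taken as a member. Members were thus chosen by position and by measured contacts, at least 20 in a library. The genes themselves were chosen with earlier results of these data known, so their ranks and calls among all windows are not independent of that choice. The windows held 879 of the 121571 bin pairs listed in any library. Cdk6 had 295 of them, Ccnd2 241, Ccnd3 281 and Cdkn1a 62. Of the 879 pairs, 101 were listed in all 6 libraries, against 28033 of all pairs, and only those could enter the tests. Because the listing chose the members, the numbers of listed pairs below are a description without a test.

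The libraries were H3K27ac HiChIP, in which fragments that touch in the nucleus are ligated, those carrying acetylated histone H3 lysine 27, a mark of active promoters and enhancers, are pulled down, and the joined fragments are sequenced. Splenic CD8+ T cells of the C57BL/6J strain came from WT mice and from CRISPR mutants that lack either an intron element or an upstream element of the super-enhancer of Il2ra, the gene of the high-affinity IL-2 receptor chain CD25. Per the labels' protocols such cells were activated with anti-CD3 and anti-CD28 for 2 days and rested for 4 hours, and the control and IL-2 libraries differ in the addition of IL-2. The 6 libraries were therefore WT, intron deletion and upstream deletion, each with 1 control and 1 IL-2 library. The sources used here do not give age, sex, the number of mice, the deleted coordinates or the time in IL-2.

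T cells leave G1, the phase before DNA synthesis, when D-type cyclins bind Cdk4 or Cdk6 and these kinases phosphorylate the retinoblastoma proteins, which then release E2F factors. Ccnd2 and Ccnd3 encode cyclins D2 and D3, the D-type cyclins that lymphocytes chiefly use. Cdkn1a encodes p21, a kinase inhibitor that p53 and other signals induce. IL-2 drives this step in activated T cells through Jak kinases and STAT5. None of these libraries measured RNA or protein, so the values below describe chromatin contacts and acetylation-enriched coverage, not expression.

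The libraries held 38879 to 94922 listed pairs with 1314137 to 3596995 contacts, and the intron deletion control library was the shallowest. All 8 markers of CD8+ T cells had listed pairs in every library, 781 to 1318 pairs in sum, whereas the NK markers Ncr1 and Klra8, the B cell markers Ms4a1, Pax5 and Blk, and the myeloid markers Lyz2, Csf1r and Itgam had none in any library. Other marker genes had few to some: the NK list held 3 to 11 pairs, the myeloid list 32 to 68, the B cell list 45 to 61 (from Cd79a), the CD4+ and regulatory T cell list 6 to 15 and the erythroid list 2 to 8, and their part in the results was not tested. Contacts and coverage were scaled for depth (TMM factors, on the scale of the geometric mean library), and with 1 library per condition an interval on a value covers counting error only.

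The promoters that these windows carry are shown because bins at or beside most of these starts anchor contacts described below. The outer Cdkn1a start is the exception, as its bin (chr17:29090001-29091000) anchored no listed pair. The single Cdkn1a pairs described below anchor in bins between -0.3 and 1.7 kb from the inner start. Each is the 250 bases before an annotated start in RefSeq (GRCm38.p6), plus strand, with matches to the searched motifs in capitals. Promoters were found for 3 of the 4 genes: chr5:3343643-3343892 for Cdk6, chr17:47504801-47505050 and chr17:47593217-47593466 for the outer and inner start of Ccnd3, and chr17:29090729-29090978 and chr17:29093519-29093768 for the outer and inner start of Cdkn1a.
Cdk6: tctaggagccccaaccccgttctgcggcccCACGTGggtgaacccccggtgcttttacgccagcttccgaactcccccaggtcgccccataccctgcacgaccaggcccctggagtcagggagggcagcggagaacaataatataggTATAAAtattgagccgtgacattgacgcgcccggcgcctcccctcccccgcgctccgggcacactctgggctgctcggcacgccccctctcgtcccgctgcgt
Ccnd3 outer: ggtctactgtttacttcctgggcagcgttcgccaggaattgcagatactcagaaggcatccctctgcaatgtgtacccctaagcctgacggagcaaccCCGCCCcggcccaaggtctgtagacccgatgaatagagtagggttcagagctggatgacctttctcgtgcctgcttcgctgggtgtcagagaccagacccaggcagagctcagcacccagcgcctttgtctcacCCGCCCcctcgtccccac
Ccnd3 inner: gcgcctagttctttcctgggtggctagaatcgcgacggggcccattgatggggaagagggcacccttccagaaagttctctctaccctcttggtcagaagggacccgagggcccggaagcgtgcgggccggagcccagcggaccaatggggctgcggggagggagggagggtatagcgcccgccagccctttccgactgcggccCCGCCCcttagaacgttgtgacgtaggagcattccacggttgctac
Cdkn1a outer: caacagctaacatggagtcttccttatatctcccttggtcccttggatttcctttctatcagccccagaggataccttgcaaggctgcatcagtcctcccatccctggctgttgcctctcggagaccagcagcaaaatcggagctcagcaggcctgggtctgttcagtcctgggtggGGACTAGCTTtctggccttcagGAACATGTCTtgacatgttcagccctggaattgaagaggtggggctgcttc
Cdkn1a inner: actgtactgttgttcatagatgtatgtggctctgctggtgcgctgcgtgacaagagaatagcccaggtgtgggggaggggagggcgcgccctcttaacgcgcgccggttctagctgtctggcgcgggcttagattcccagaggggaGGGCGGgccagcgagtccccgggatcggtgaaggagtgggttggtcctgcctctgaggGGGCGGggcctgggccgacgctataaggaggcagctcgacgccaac

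The motifs searched on both strands were the STAT site TTCNNNGAA, the E-box CACGTG, the AP-1 site TGANTCA, the E2F sites TTTGGCGC and TTTCCCGC, the GC box GGGCGG, the TATA box TATAAA, the p53 half-site and the NF-kB site. No match overlapped another in these windows. The Cdk6 promoter held 1 E-box, which 6.02% of the 32851 promoters in the table hold, and 1 TATAAA, which 12.4% hold. The capitals in the Ccnd3 promoters are GC boxes, 2 before the outer and 1 before the inner start (32.7% of promoters hold one). The outer Cdkn1a promoter held 2 p53 half-sites, GGACTAGCTT and GAACATGTCT (7.13% of promoters hold a half-site), and the inner one 2 GC boxes. The STAT, AP-1, E2F and NF-kB letters were not in these windows, and 7.02% of promoters hold the STAT letters.

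The level of each gene window was the sum of contacts over its pairs listed in all 6 libraries. Cdk6 (19 pairs) had 695 scaled contacts in WT control and 1062 in WT with IL-2, 735 in intron deletion control and 735 with IL-2, and 731 in upstream deletion control and 1187 with IL-2. The WT and upstream deletion IL-2 libraries stood above the other 4, whose 95% Poisson intervals overlapped. Ccnd2 (32 pairs) had 1430 and 1708 scaled contacts in WT control and IL-2, 1239 and 1216 in intron deletion cells, and 1420 and 1718 in upstream deletion cells. Here the libraries fell into 3 steps, with the WT and upstream deletion IL-2 libraries highest, their controls next and both intron deletion libraries lowest.
Ccnd3 (41 pairs) spanned a narrow range, 1466 and 1711 scaled contacts in WT control and IL-2, 1629 and 1749 in intron deletion cells, and 1487 and 1758 in upstream deletion cells, and each library overlapped the next in order. Cdkn1a (9 pairs) had 868 and 836 scaled contacts in WT, 818 and 853 in upstream deletion cells, and 363 and 360 in intron deletion cells. The 4 libraries without the intron deletion overlapped, and both intron deletion libraries lay far below them.

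**Figure D1:**
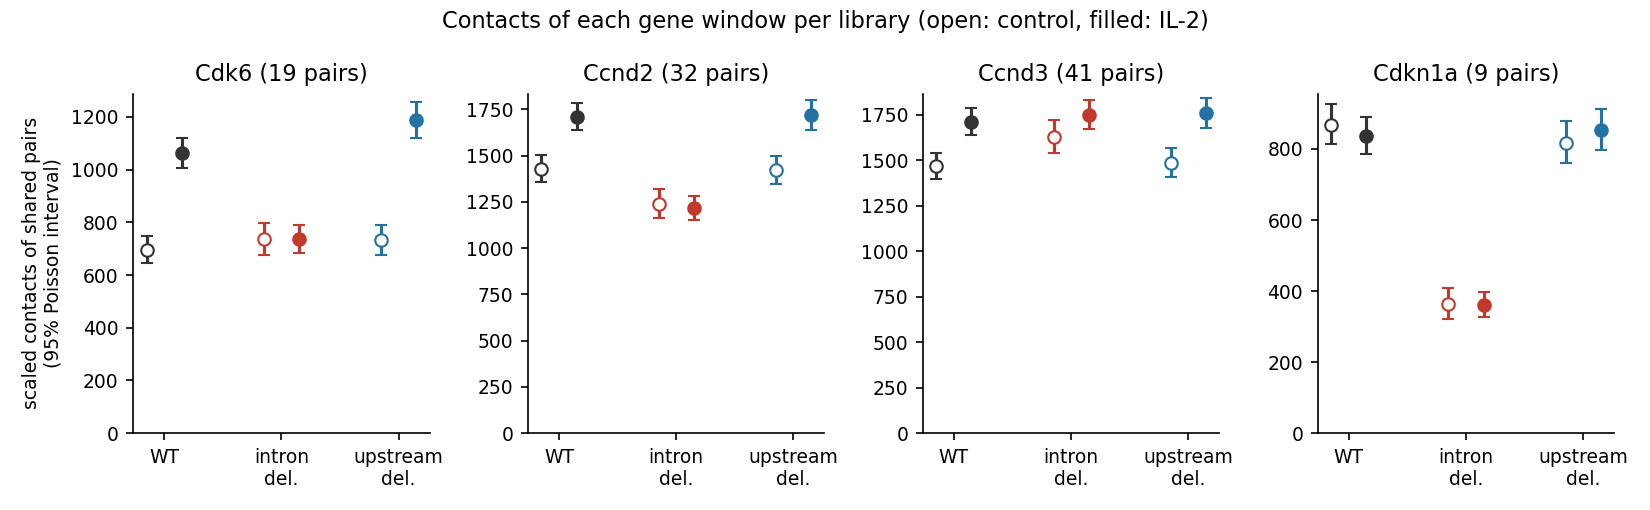
Scaled contacts summed over the pairs listed in all 6 libraries, by genotype, for the 4 gene windows; points are single libraries (open control, filled IL-2) and bars 95% Poisson intervals. Cdk6 stands at 1062 and 1187 in the WT and upstream deletion IL-2 libraries and at 695 to 735 in the other 4, and Cdkn1a stands at 360 and 363 in intron deletion cells.

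Over the shared pairs, Cdk6 contacts were higher with IL-2 in WT and upstream deletion cells, and at one level with and without it in intron deletion cells. The ratio of IL-2 to control over the 19 shared pairs was 1.53 in WT (95% binomial interval 1.39 to 1.67), 1.62 in upstream deletion cells (1.47 to 1.79) and 1.0 in intron deletion cells (0.898 to 1.12). Scaled by total listed contacts the ratios were 1.29, 1.51 and 0.686, so the order of the genotypes stayed while the level in the intron deletion moved. Single pairs followed the sums: 18 of 19 were higher with IL-2 in WT, 19 in upstream deletion cells and 9 in intron deletion cells. Coverage of the 24 Cdk6 bins listed in all 6 libraries had IL-2 ratios of 1.83 in WT and 1.94 in upstream deletion cells. In intron deletion cells it was 1.12 (1.10 to 1.14), with 19 bins higher and 5 lower. The IL-2 change of the intron deletion differed from that of the other genotypes by -0.62 on the log2 scale (SE 0.09, edgeR quasi-likelihood test of the interaction, adjusted p = 0.00475), a call made for 3.8% of the 3522 gene windows tested. That test takes its spread from the match of the other genotypes, with 1 residual degree of freedom, and from spread borrowed across all windows. The intron deletion has no replicate, so no spread of its own entered the p-value.

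Averaged over the genotypes, the Cdk6 window rose with IL-2 by 0.45 (log2, SE 0.10, fold 1.36, edgeR adjusted p = 0.0378), the 53rd highest of 3522 windows, where 3.55% were called in either direction and 2.33% higher. The call did not hold without the WT control (adjusted p = 0.381), the WT IL-2 (0.0517), the upstream deletion control (0.185) or the upstream deletion IL-2 library (0.511), on the gene span alone (0.0557) or on bin coverage (0.0729). Without both intron deletion libraries, an alternative chosen after seeing the data, the rise was 0.64 (edgeR adjusted p = 2.01e-06). In the same genome-wide fit Cdk6 differed from WT by -0.21 in intron deletion cells (edgeR adjusted p = 0.271) and by 0.17 in upstream deletion cells (adjusted p = 0.579), and neither passed. The first of these was -0.49 without the intron deletion control (edgeR adjusted p = 6.56e-05) and 0.13 without the intron deletion IL-2 library (0.314).

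**Figure D2:**
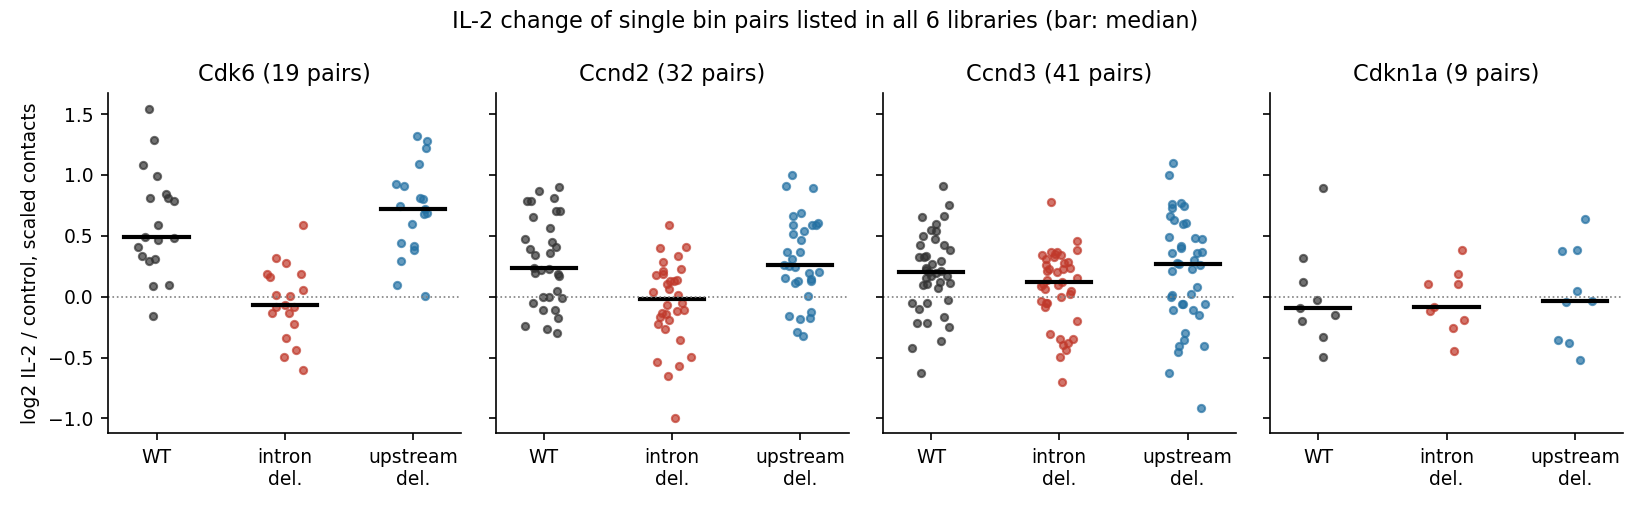
Log2 ratio of scaled contacts, IL-2 over control, for each bin pair listed in all 6 libraries, by genotype; points are pairs and black bars medians. The median Cdk6 pair lies at 0.49 in WT, 0.72 in upstream deletion cells and -0.07 in intron deletion cells, and the Cdkn1a medians lie between -0.09 and -0.03.

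The number of listed Cdk6 pairs was higher with IL-2 in every genotype, with the smallest rise in intron deletion cells. Listed pairs numbered 52 in WT control and 258 with IL-2, 41 and 203 in upstream deletion cells, and 30 and 83 in intron deletion cells. Depth sets part of such counts, so they were repeated at 1 depth-scaled minimum of contacts in every library, an alternative chosen after seeing the data. At that minimum Cdk6 had 27 and 104 pairs in WT, 27 and 130 in upstream deletion cells, and 30 and 37 in intron deletion cells. The share of Cdk6 pairs found with IL-2 and in no control library was 78.3%, against 31.1% of all pairs, and at the equal minimum 68.8% against 17.7%.

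Cdk6 contacts were almost all internal to its window of 200.005 kb, with both anchors inside it in 278 of 295 pairs. The shared bins formed 3 blocks, around the start (-2.4 to 13.6 kb from the annotated start, chr5:3341001-3358000), in the middle of the gene (116.6 to 133.6 kb, chr5:3460001-3478000) and towards its 3′ part (147.6 to 168.6 kb, chr5:3491001-3513000). All 3 overlap the annotated Cdk6 span, which runs from 3341004 to 3531008 on chromosome 5. The bin at 158.6 kb (chr5:3502001-3503000) had the most partners in every library, 25 in WT control and 37 in WT with IL-2.
Its pair with the bin at 153.6 kb was the strongest Cdk6 pair, with 64 contacts in WT control and 130 with IL-2, 55 and 87 in intron deletion cells, and 64 and 117 in upstream deletion cells. This pair rose with IL-2 by 0.62 (log2, SE 0.15, edgeR adjusted p = 0.00299).

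The largest rise among the tested Cdk6 pairs joined bins at 117.6 and 122.6 kb, inside the middle block. It had 24 contacts in WT control and 81 with IL-2, 33 and 86 in upstream deletion cells, and 25 and 53 in intron deletion cells, a rise of 1.19 (log2, SE 0.20, edgeR adjusted p = 1.44e-06). The start pair of bins at 0.6 and 7.6 kb also rose, with 46 and 113 contacts in WT, 32 and 71 in upstream deletion cells and 40 and 57 in intron deletion cells (log2 0.77, SE 0.17, edgeR adjusted p = 0.00123). In all, 6 of the 101 member pairs passed the IL-2 test, all higher (5 of Cdk6 and 1 of Ccnd3), against 3.3% of the 28033 pairs tested and 2.56% higher. DESeq2 called 0 of the 101 and 3 of the 28033 but gave no adjusted p for 77 of the 101. An unadjusted edgeR p under 0.05 was found for 31 of the 101 and for 4129 of the 28033. Fewer were called by edgeR with 1 WT or 1 upstream deletion library left out. With WT and upstream deletion cells alone edgeR called 17, and the share of all pairs called in that fit is not given here.

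Pairs between the blocks were nearly all unlisted in the control libraries. Between the start block and the middle block, WT had 0 listed pairs in control and 21 with IL-2 (600 contacts), the upstream deletion 1 and 17 (20 and 483 contacts), and the intron deletion 0 and 13 (322 contacts). Between the middle and the 3′ block, WT had 7 and 52 listed pairs, the upstream deletion 4 and 45, and the intron deletion 4 and 12. Within the middle block the numbers were 1 and 31 in WT, 2 and 28 in upstream deletion cells, and 6 and 14 in intron deletion cells. If the minimum alone decided the listing, a pair not listed has at most 19 contacts. These counts show where pairs became listed and not that their contacts were absent before.

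Coverage of single bins, a count kept apart from the contacts of any 1 pair, located the change. The middle block had 3886 scaled coverage counts in WT control and 14092 with IL-2, 4209 and 16236 in upstream deletion cells, and 6800 and 8748 in intron deletion cells, ratios of 3.63, 3.86 and 1.29. In control cells the intron deletion library was 1.75 times WT over this block, and with IL-2 it was 0.621 times WT. The start block had ratios of 1.55 in WT, 1.64 in upstream deletion cells and 1.11 in intron deletion cells, and the 3′ block 1.5, 1.58 and 1.03. The steepest bin, at 116.6 kb (chr5:3460001-3461000), went from 1034 to 4386 in WT, from 1107 to 5009 in upstream deletion cells and from 2085 to 2844 in intron deletion cells.

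**Figure D3:**
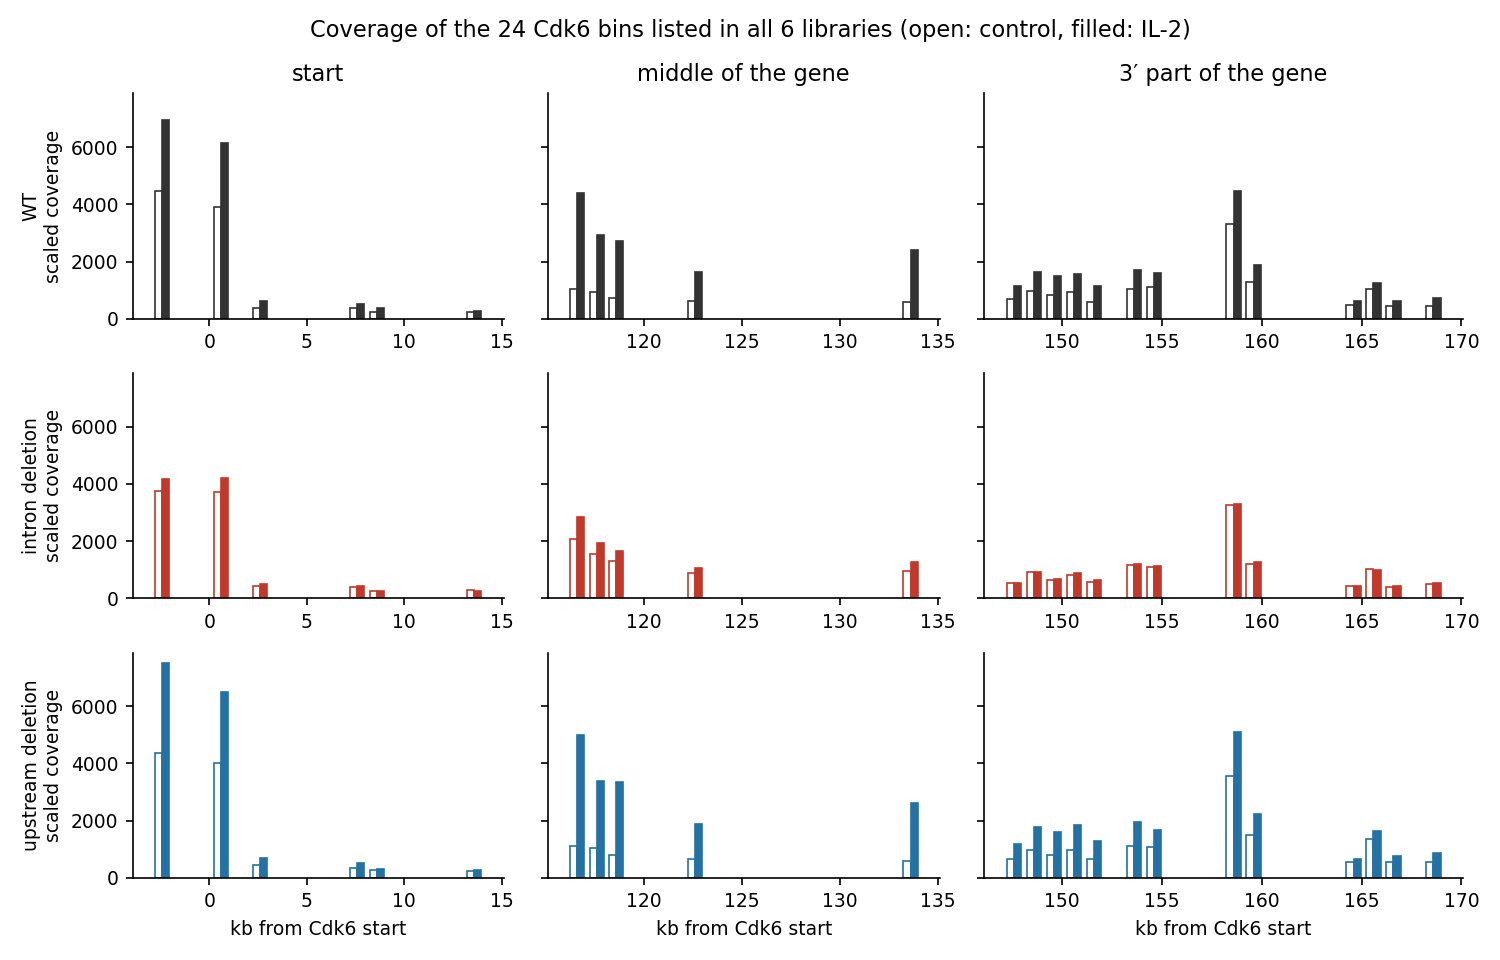
Scaled coverage of the 24 Cdk6 bins listed in all 6 libraries, by distance from the annotated start; rows are genotypes, columns the 3 blocks, open bars control and filled bars IL-2. The middle block rises from 3886 to 14092 in WT and from 4209 to 16236 in upstream deletion cells, and from 6800 to 8748 in intron deletion cells.

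Across the 24 Cdk6 bins the averaged IL-2 change ran from 0.12 to 1.58 (log2) and was positive in each, but none passed, as was the case for all 18580 bins (0% called, lowest edgeR adjusted p = 0.0616). Of the 63 member bins, 46 had an unadjusted edgeR p under 0.05, 43 of them higher, against 6801 of the 18580 bins, 3558 higher. DESeq2 called 31, 30 higher and 1 lower, against 2150 of all bins, 1207 higher and 943 lower. The interaction test called 22 of the 24 Cdk6 bins, each with a smaller IL-2 change in the intron deletion than in the other genotypes, against 21.5% of all bins called in either direction. With 1 residual degree of freedom these bin p-values rest on the match of WT and upstream deletion cells and on spread borrowed across all bins. No replicate of the intron deletion entered them. At single pairs the interaction test called 0 of 101 members (11 at an unadjusted edgeR p under 0.05), against 0.0357% of all pairs. At bins it called 4 of 10 Ccnd2 bins (all smaller), 6 of 26 Ccnd3 bins (5 smaller, 1 larger) and 0 of 3 Cdkn1a bins (1 at an unadjusted edgeR p under 0.05; DESeq2 was not run on this test).

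Ccnd2 contacts were lower in the intron deletion than in WT. The gene lies at chr6:127125162-127152188, and its upper annotated end was taken as the start. The ratio to WT over the 32 shared pairs was 0.866 in control (0.798 to 0.940) and 0.712 with IL-2 (0.664 to 0.763), but 1.27 in control and 0.847 with IL-2 when scaled by total listed contacts, which turns the control direction. The window differed by -0.32 (log2, SE 0.07, edgeR adjusted p = 0.0128), where 17.8% of windows were called and 8.35% lower. The call was lost in DESeq2 (adjusted p = 0.0729) and without the WT control (edgeR adjusted p = 0.0733), the WT IL-2 (0.221) or the intron deletion IL-2 library (0.0614).

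Coverage gave the same direction in more bins: 9 of the 10 Ccnd2 bins were lower in the intron deletion, with changes of -0.66 to -0.28, against 24.5% of all bins called lower. The bin next to the start, at 0.7 kb, had 4423 and 5731 scaled coverage counts in WT control and IL-2, 3140 and 3906 in intron deletion cells and 3973 and 5497 in upstream deletion cells. At 2.7 kb, the bin with the highest coverage, the values were 6439 and 6626, 5283 and 5501, and 6582 and 6871. The bin at -3.3 kb was the exception, with 1704 and 2799 in WT and 2011 and 2222 in intron deletion cells (log2 -0.05, edgeR adjusted p = 0.790). Of the bins listed in all 6 libraries this was the last inside the window, and the bin at -6.3 kb, with 386 in WT control and 382 in the intron deletion control, the nearest outside.

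Most Ccnd2 pairs, 192 of 241, had 1 anchor outside the window. That window spans 37.027 kb and the Cdk6 window 200.005 kb, so longer contacts count as internal at Cdk6 and the 2 shares are not alike. The main partner was a region about 89.3 kb upstream (chr6:127235001-127248000, in no protein-coding gene), which held 74 pairs. Its 21 pairs listed in all 6 libraries summed to 857 scaled contacts in WT control and 1043 with IL-2, 738 and 758 in intron deletion cells, and 886 and 1077 in upstream deletion cells. A farther region (chr6:127262001-127273000, 115.3 kb upstream) held 38 pairs, 14 and 37 of them listed in WT, 1 and 9 in intron deletion cells and 9 and 17 in upstream deletion cells.

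Within the upstream region the difference was not of one size. The pair of the bin at 1.7 kb with the bin 88.3 kb upstream had 57 and 77 contacts in WT, 25 and 32 in intron deletion cells and 42 and 66 in upstream deletion cells (intron deletion against WT: log2 -0.96, SE 0.24, edgeR adjusted p = 0.00242). The pair of the bin at 2.7 kb with the bin 94.3 kb upstream, the strongest long Ccnd2 pair, had 64 and 87, 49 and 81, and 72 and 60 contacts (log2 0.06, SE 0.19, edgeR adjusted p = 0.882). Coverage of the bin 88.3 kb upstream was 5433 scaled counts in WT control and 4701 in the intron deletion control (log2 -0.31, edgeR adjusted p = 0.00857), and that of the bin 94.3 kb upstream 5032 and 4821 (log2 -0.02, edgeR adjusted p = 0.757). The neighbouring bin 89.3 kb upstream had 2211 and 1211 (log2 -0.98, edgeR adjusted p = 6.13e-04). In all, 11 of the 101 member pairs were called in the intron deletion, each lower (4 of Ccnd2, 6 of Cdkn1a and 1 of Cdk6), against 11.3% of all pairs called and 5.03% lower. The count was lower without the WT control, the WT IL-2 or the intron deletion IL-2 library, and higher without the intron deletion control. DESeq2 called 5 of the 101, against 111 of the 28033, and gave no adjusted p for 47 of the 101. Of the 63 bins 27 were called (46.2% of all bins), and 12, 14 and 52 without the WT control, the WT IL-2 and the intron deletion control library.

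With IL-2 the Ccnd2 window changed by 0.17 (log2, SE 0.06), which did not pass (edgeR adjusted p = 0.128). The ratios were 1.19 in WT (1.12 to 1.28), 1.21 in upstream deletion cells (1.12 to 1.30) and 0.982 in intron deletion cells (0.903 to 1.07). With WT and upstream deletion cells alone, a fit chosen after seeing the data, the change was 0.25 and passed. Leaving out 1 intron deletion library gives that same comparison, because the other is then fitted by its own genotype term. The difference of the intron deletion from the other genotypes was -0.26 (SE 0.08, edgeR adjusted p = 0.0908), and it passed with RLE factors (adjusted p = 0.0487), without scaling factors (0.0140) and with 20 kb on each side (0.0391).

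Ccnd3 showed little change as a whole and larger differences at single bins near both of its ends. The window (chr17:47500051-47604689) changed with IL-2 by 0.18 (log2, SE 0.05, edgeR adjusted p = 0.0654) and in the intron deletion by 0.13 (SE 0.06, adjusted p = 0.182), and neither passed. The IL-2 ratios were 1.17 in WT, 1.18 in upstream deletion cells and 1.07 in intron deletion cells (0.985, 1.10 and 0.736 scaled by total listed contacts). With WT and upstream deletion cells alone, a fit chosen after seeing the data, the IL-2 change was 0.22 and passed. On bin coverage the intron deletion was higher by 0.22 (edgeR adjusted p = 0.0211).

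Its shared bins formed 2 blocks, which contain the outer start (chr17:47502001-47533000) and the inner start with the 3′ end (chr17:47593001-47603000). The outer block had IL-2 ratios of coverage of 1.07 in WT, 1.04 in upstream deletion cells and 1.0 in intron deletion cells. The inner block went from 11805 to 17220 scaled coverage counts in WT, from 12733 to 18226 in upstream deletion cells and from 16086 to 19028 in intron deletion cells, ratios of 1.46, 1.43 and 1.18. In control cells the intron deletion library was thus 1.36 times WT over the inner block and close to the WT IL-2 level.

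The bin with the annotated ends of Ccnd3 and its neighbour Bysl (chr17:47599001-47600000) showed this most: 948 and 1856 in WT, 1025 and 1860 in upstream deletion cells, and 1907 and 2368 in intron deletion cells (intron deletion against WT: log2 0.67, SE 0.16, edgeR adjusted p = 0.0149). Of the 26 Ccnd3 bins, 10 were higher and 1 lower in the intron deletion, against 21.7% of all bins higher. Of the higher bins, 5 were the last of the gene and those just beyond it, between 5.0 and 9.0 kb from the inner start. Those from 7.0 to 9.0 kb touch Bysl alone. The other higher bins lay in the outer block, between -88.0 and -74.0 kb, with changes of 0.27 to 0.41. The bin with the outer start, chr17:47505001-47506000, had 3485 and 2963 in WT, 4080 and 3803 in intron deletion cells and 3926 and 2804 in upstream deletion cells (log2 0.30, SE 0.09, edgeR adjusted p = 0.0421).

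**Figure D4:**
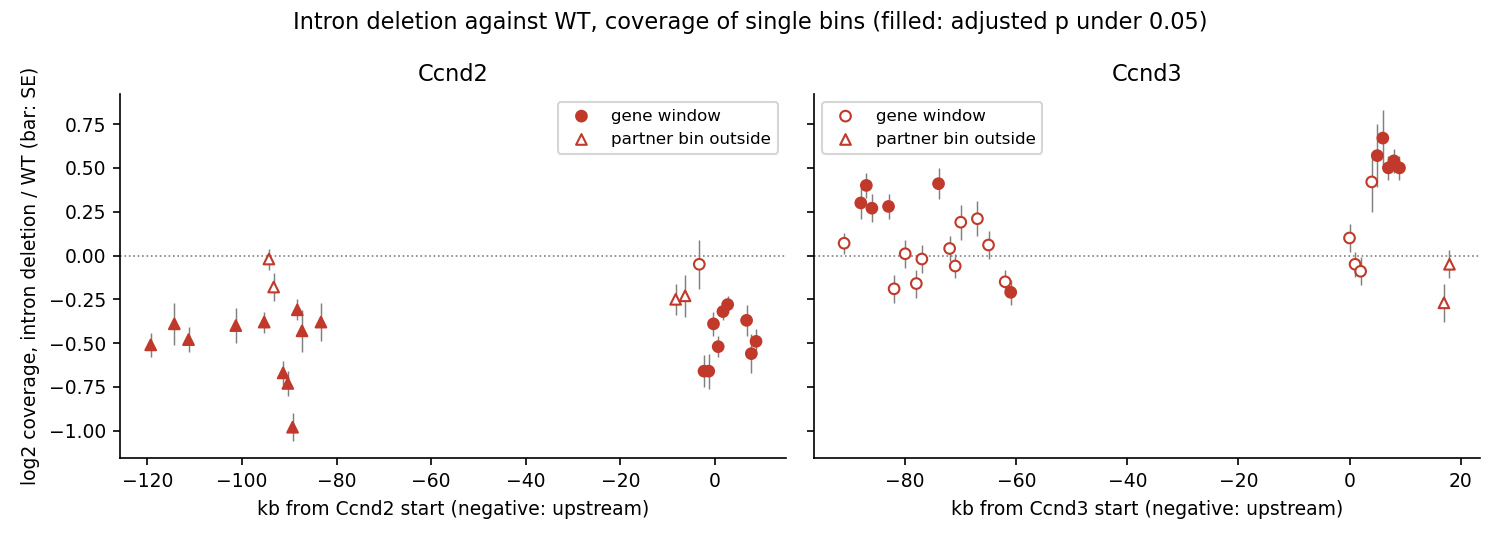
Log2 difference in coverage, intron deletion against WT, of single bins listed in all 6 libraries, by distance from the start of Ccnd2 and Ccnd3; circles lie in the gene window, triangles are partner bins outside it, bars are standard errors and filled symbols have an adjusted p under 0.05. Ccnd2 bins and their upstream partners lie mostly below 0 (down to -0.98), and the last bins of the Ccnd3 window lie above 0 (up to 0.67).

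The strongest contacts of the Ccnd3 window joined its last bins to the bin chr17:47611001-47612000 downstream. That bin touches Bysl, a ribosome biogenesis gene, Gm20517 and Med20, a Mediator subunit gene. The window bin at 7.0 kb lies beyond the end of Ccnd3 and touches Bysl alone, so its pair joins 2 bins that touch Bysl. The pair with the bin at 7.0 kb had 64 and 108 contacts in WT, 45 and 73 in intron deletion cells, and 67 and 97 in upstream deletion cells (IL-2: log2 0.42, SE 0.16, edgeR adjusted p = 0.114). The pair with the bin at 5.0 kb had 47 and 86, 47 and 73, and 35 and 78, and was the only Ccnd3 pair called with IL-2 (log2 0.62, SE 0.17, edgeR adjusted p = 0.0154). Contacts that bridge the 2 blocks were listed in 8 pairs in WT control and 50 with IL-2, 8 and 31 in upstream deletion cells, and 3 and 38 in intron deletion cells. Here the intron deletion IL-2 library lay between the other IL-2 libraries, in contrast with the Cdk6 blocks.

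Cdkn1a had fewer contacts in the intron deletion with and without IL-2. Over its 9 shared pairs the ratio to WT was 0.418 in control (0.365 to 0.478) and 0.431 with IL-2 (0.383 to 0.484), or 0.613 and 0.513 scaled by total listed contacts. RNA and cell numbers were not measured, so fewer cells with the contact and fewer contacts per cell cannot be told apart. The window (chr17:29085979-29105722) fell by 1.20 on the log2 scale (SE 0.07, fold 0.436, edgeR adjusted p = 2.81e-06), the 3rd lowest of 3522 windows. The call held in every alternative and with each library left out in turn, with values from -1.29 to -1.12. In the upstream deletion the window differed by 0.02 (SE 0.07, edgeR adjusted p = 0.920), with ratios of 0.942 (0.854 to 1.04) in control and 1.02 (0.929 to 1.12) with IL-2.

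All Cdkn1a pairs had 1 anchor outside the window, which spans 19.744 kb. The main partner region lay 12.8 kb upstream of the inner start (chr17:29078001-29084000, in no protein-coding gene) and held 21 of the 62 pairs. Of these 21, 19 and 21 were listed in WT control and IL-2, 17 and 17 in upstream deletion cells, and 5 and 11 in intron deletion cells. The 5 pairs listed in all 6 libraries summed to 652 and 628 scaled contacts in WT, 620 and 646 in upstream deletion cells, and 236 and 221 in intron deletion cells. The strongest pair, from the bin 12.3 kb upstream to the bin at 0.7 kb, had 256 and 236 contacts in WT, 189 and 191 in upstream deletion cells, and 54 and 82 in intron deletion cells (log2 -1.57, SE 0.16, edgeR adjusted p = 4.32e-20). The next, to the bin that holds the inner promoter printed above, had 169 and 171, 123 and 166, and 48 and 64 (log2 -1.32, SE 0.17, edgeR adjusted p = 1.14e-11).

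The size of the difference varied among partners, and that variation was not tested. Pairs with the region 60.3 kb upstream, which touches Srsf3, a splicing factor gene, included 3 shared pairs, and none of those 3 was called in the intron deletion. The strongest of them had 67 and 55 contacts in WT, 54 and 55 in upstream deletion cells and 29 and 44 in intron deletion cells (log2 -0.45, SE 0.23, edgeR adjusted p = 0.216). The 6 other shared pairs were all called lower, by 1.17 to 1.73. Pairs with the region 26.8 kb upstream and with Cpne5, 75.2 kb downstream, numbered 9 and 6 in WT control and 7 and 4 in the upstream deletion control, and none was listed in either intron deletion library. Altogether 21 of the 62 Cdkn1a pairs (33.9%) were listed in the 4 other libraries and in neither intron deletion library, against 2.51% of all pairs.

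**Figure D5:**
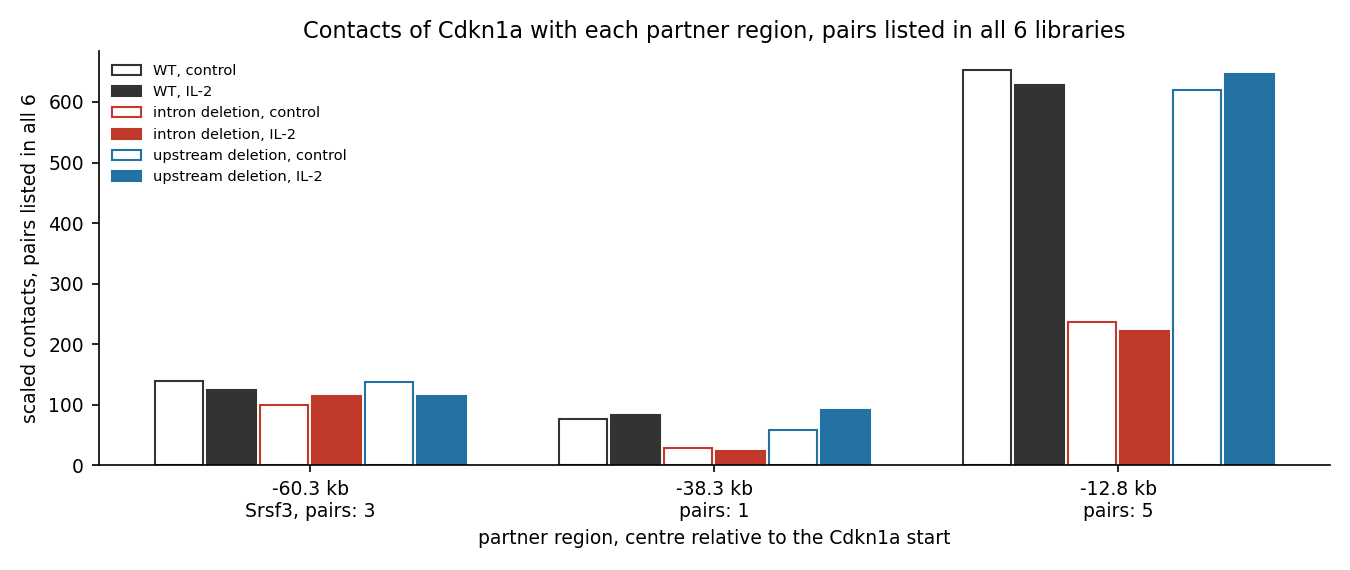
Scaled contacts of Cdkn1a with each partner region, summed over the pairs listed in all 6 libraries, by position of the region relative to the inner start; bars are single libraries (open control, filled IL-2). The region 12.8 kb upstream has 620 to 652 scaled contacts in the 4 libraries without the intron deletion and 236 and 221 in intron deletion cells.

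Coverage at both anchors fell with the contacts. The Cdkn1a bin at 0.7 kb had 8726 and 7365 scaled coverage counts in WT, 9018 and 7961 in upstream deletion cells, and 2853 and 2749 in intron deletion cells (log2 -1.52, SE 0.06, edgeR adjusted p = 1.77e-04). The bin at -0.3 kb, with the inner promoter, changed by -1.59 and the bin at 1.7 kb by -0.69. The partner bin 12.3 kb upstream had 5340 and 6426, 5231 and 6509, and 2628 and 2843 (log2 -1.10, edgeR adjusted p = 2.93e-04). The Srsf3 bin 61.3 kb upstream had 6949 scaled coverage counts in WT control, against 7092 in the intron deletion control, and with IL-2 6984 against 6914 (log2 0.01, edgeR adjusted p = 0.904).

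Whether contacts of Cdkn1a differed with IL-2 beyond counting error varied with the measure. Over the 9 shared pairs the ratio of IL-2 to control was 0.963 in WT (0.880 to 1.05), 1.04 in upstream deletion cells (0.944 to 1.15) and 0.993 in intron deletion cells (0.850 to 1.16), and each interval holds 1. Scaled by total listed contacts the ratios were 0.813 (0.743 to 0.890), 0.970 (0.877 to 1.07) and 0.680 (0.583 to 0.795), and over the 45 pairs listed in both WT libraries the ratio was 0.922 (0.872 to 0.975). The window changed by -0.01 (log2, SE 0.06, edgeR adjusted p = 0.936). Coverage of its 3 bins had ratios of 0.882 in WT (0.863 to 0.902), 0.918 in upstream deletion cells (0.896 to 0.941) and 0.988 in intron deletion cells (0.949 to 1.03). The strongest rise among its pairs, from the bin 12.3 kb upstream to the bin at 1.7 kb, had 66 and 142 contacts in WT, 58 and 79 in upstream deletion cells and 33 and 43 in intron deletion cells (log2 0.51, SE 0.16, edgeR adjusted p = 0.0503) and did not pass.

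No member window passed in the upstream deletion against WT (edgeR, 0 of 4 at an unadjusted p under 0.05, DESeq2 0 of 4), where 0.17% of all windows were called. Of the members' pairs 0 of 101 passed, where 0.0785% of all pairs were called. An unadjusted edgeR p under 0.05 was found for 5 of them and for 2294 of the 28033 pairs, and DESeq2 called 0 of the 101. Of the bins 0 of 63 passed, where 1.69% of all bins were called. An unadjusted edgeR p under 0.05 was found for 6 of them and for 4518 of the 18580 bins. DESeq2 called 1 of the 63 and 529 of all bins. The differences of the 4 windows, with a range of 2 SE on each side, were 0.17 for Cdk6 (-0.07 to 0.41), 0.05 for Ccnd2 (-0.10 to 0.20), 0.08 for Ccnd3 (-0.04 to 0.20) and 0.02 for Cdkn1a (-0.11 to 0.16). Without both intron deletion libraries, a fit chosen after seeing the data, Cdk6 was called higher in the upstream deletion (0.18, edgeR adjusted p = 0.0435). In that fit 22 of the 63 bins were called, 20 higher and 2 lower. The share of all bins called in it is not given here, so that count is a description without a test. Leaving out 1 intron deletion library gives the same comparison, because the other is then fitted by its own genotype term.

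Single genes of the wider cell cycle machinery were called in the same fit, in which 3.55% of all windows were called with IL-2 and 17.8% in the intron deletion. Of 15 other G1 cyclins, kinases and inhibitors, 7 had a window measured in all 6 libraries and 1 passed with IL-2, Cdkn1b, the inhibitor p27, which fell by 0.31 (log2, SE 0.07, edgeR adjusted p = 0.0409); the median of the list was -0.01 against 0.01 over all windows. Cdk4, the other partner kinase of the D-type cyclins, chosen after its values were seen, changed by 0.02 (edgeR adjusted p = 0.869) in a window shared with Marchf9 and Tspan31. Of 13 Rb and E2F genes 5 were measured and 1 passed, Rbl2, a retinoblastoma family member, which fell by 0.55 (adjusted p = 0.0193; list median -0.16). Of 12 S to M phase genes 8 were measured and Cdc20, an activator of the anaphase-promoting complex, rose by 0.27 (adjusted p = 0.0425; list median -0.03). None of these 3 lists had a member called in the intron deletion. The largest differences there were 0.27 for Cdkn2c, another kinase inhibitor (edgeR adjusted p = 0.382), -0.27 for E2f3 (0.0833) and -0.46 for Ccnb1, cyclin B1 (0.0928). The Ccnb1 window is shared with Cenph.

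Among 12 p53 targets, 7 were measured. With IL-2, where 1.22% of all windows were lower, 3 passed, all lower: Trp53inp1 by -0.66, Btg2 by -0.45 and Bbc3, which encodes the cell death protein Puma, by -0.40 (edgeR adjusted p = 0.0193, 0.0245 and 0.0404; list median -0.40). In the intron deletion, where 8.35% of all windows were lower, 2 passed, both lower. Sesn2, a stress-induced regulator of mTORC1, differed by -0.56 and Bax, a cell death effector, by -0.32 (edgeR adjusted p = 0.0121 and 0.0235, list median -0.28), beside -1.20 for Cdkn1a. The rest did not pass and went both ways, with Ccng1 at -0.31, Bbc3 at -0.28, Trp53inp1 at 0.01, Mdm2 at 0.15 and Btg2 at 0.30. The Ccng1 window is shared with Hmmr and Nudcd2. Of 9 antiproliferative genes 7 were measured and 3 fell with IL-2, Cdkn1b and Rbl2 as above and Ccng2, an atypical cyclin, by 0.45 (adjusted p = 0.0445; list median -0.31), while 0 passed in the intron deletion, where Foxo1 differed by 0.37 (adjusted p = 0.326) and Btg1 by 0.19 (adjusted p = 0.0594).

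Of 12 IL-2 and STAT5 targets 11 were measured, and 8 rose with IL-2, against 2.33% of all windows called higher. These were Cish, Osm, Bcl2, Socs1, Tnfrsf18, Pim1, Il2rb and Pim2, by 0.27 to 0.52 (list median 0.30). Like the lists above, this one was chosen with earlier results of these data known. Its counts beside the share of all windows are therefore a description without a test. Cish, a feedback inhibitor of cytokine signalling, rose by 0.52 and Bcl2, a survival gene, by 0.45 (edgeR adjusted p = 0.0193 and 0.0106), beside 0.45 for Cdk6. In the intron deletion 5 of the 11 were lower (Cish, Pim1, Osm, Il2rb and Tnfrsf18, by -0.43 to -0.27), against 8.35% of all windows, and Bcl2 was higher (0.35, edgeR adjusted p = 0.00413; list median -0.22). Pim2 shares its contacts with the window of Slc35a2, so the source of its rise cannot be told apart.

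The windows whose levels ran closest to each member were found by the root mean square difference of centred log2 levels, scaled for library size, over the 6 libraries. Closest to Cdk6 were Map3k8, Mapkapk3 and Coro2a (differences of 0.06, 0.06 and 0.07); Map3k8, a MAP kinase kinase kinase, had 651 and 1096 contacts in WT, 492 and 766 in intron deletion cells and 637 and 1028 in upstream deletion cells. Closest to Ccnd2 were Mapkapk2, Ier3 and Nfkb1 (0.03, 0.03 and 0.04), and closest to Ccnd3 were Snx32, 4933440N22Rik and Gpr18 (0.01, 0.02 and 0.02). Closest to Cdkn1a were Ttc39c, Tnfaip8 and Ly6e (0.09, 0.10 and 0.13), of which the window of Ttc39c rests on 1 pair and that of Tnfaip8 on 2, whereas that of Ly6e, a surface protein gene, rests on 26 and had 2116 and 2269 contacts in WT, 807 and 1029 in intron deletion cells and 1991 and 1886 in upstream deletion cells.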

How the data were processed

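H3K27ac HiChIP tables of 6 libraries were analysed, and the other 19 samples of the series (ChIP) were not used here. The authors deposited, for each library, raw counts of contacts per pair of 1 kb bins, with the raw coverage counts of both bins; Bowtie2 2.2.6, HiC-Pro, CASAVA and the build mm10 (GRCm38) are named in the submitters' processing notes. Listed pairs have at least 20 contacts and lie at least 5 kb apart. The p and q columns were empty, so whether a further filter also chose the listed pairs is unknown. A pair below the minimum has at most 19 contacts, so low pairs were seen mainly in deeper libraries and in libraries where they rose.

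Contacts were summed over pairs listed in all 6 libraries for 3522 gene windows (gene span with 5 kb on each side), and pairs and bins were also tested singly. Counts were scaled by TMM and fitted with genotype and treatment as terms (edgeR 4.0.16 quasi-likelihood test in R 4.3.3, 2 residual degrees of freedom, Benjamini-Hochberg over all features, threshold 0.05). An interaction fit set 1 genotype's IL-2 change against the others (1 residual degree of freedom). Each genotype and treatment has 1 library, so spread was borrowed across genotypes and genes, and nothing says whether libraries came from separate mice. Standard errors were the log2 change over the root of the F statistic. Intervals on ratios (exact binomial) and levels (exact Poisson), at 95%, cover counting error only. The fitting scripts were tested on simulated data.

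Alternatives were RLE factors, library size alone, DESeq2 1.42.0, a minimum mean (30 counts, 60 for windows), other windows (gene span, 20 kb), bin coverage, other scalings, unlisted pairs at 0 or 19 contacts, treatment alone and each library left out. An equal depth-scaled minimum, fits without both intron deletion libraries and the alternatives to the interaction fit were chosen after seeing the data. The genes and lists were chosen with earlier results of these data known. Named were the strongest and most changed pairs of each gene, bins at annotated ends, partner genes, called list members or else the 2 most changed, and the 3 windows most like each gene; other single bins were picked after their values were seen. Bins less than 12 kb apart were joined into a block and partner bins within 3 kb into a region.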

Additional observations from a re-analysis of the deposited data

Results flagged for a closer look

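The IL-2 change differed between genotypes in 4 results, each by the interaction test of edgeR. The Cdk6 window changed by -0.62 (log2) in the intron deletion against the other genotypes (adjusted p = 0.00475). The same test called 22 of 24 Cdk6 bins (lowest adjusted p = 7.02e-78), 4 of 10 Ccnd2 bins (5.99e-08) and 6 of 26 Ccnd3 bins (1.30e-14), against 21.5% of all bins, so the share of Ccnd3 bins is near that of all bins. The intron deletion has 1 library per treatment, so a difference between genotypes and a difference between single libraries cannot be told apart. The size of these p-values reflects spread borrowed across features and not replicates. No group holds enough libraries to look for one that stands apart.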

How the results depend on the processing

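The lower Cdkn1a contacts in the intron deletion passed in every fit run (-1.29 to -1.12), and the Cdk6 interaction passed in each of its 5 alternatives (-0.72 to -0.61). The Cdk6 rise with IL-2 did not pass on the gene span (0.43), on coverage (0.64) or without a genotype term (0.46), and with each of these 0 windows were called. With WT and upstream deletion only, 3 windows passed with IL-2 (Ccnd2 0.25, Ccnd3 0.22) and 1 in the upstream deletion (Cdk6 0.18). In that fit 17 pairs and 53 bins were called with IL-2 and 22 bins in the upstream deletion. The shares of all features called in it are not given here. In DESeq2 Ccnd2 in the intron deletion missed the threshold (-0.31), leaving 1 window. It called 0 member pairs and 31 bins with IL-2, 5 pairs in the intron deletion and 1 bin in the upstream deletion. Over all features it called 3 pairs and 2150 bins with IL-2, 111 pairs in the intron deletion and 529 bins in the upstream deletion. On coverage Ccnd3 passed in the intron deletion (0.22), and the Cdkn1a interactions were 0.17 (intron deletion, passed) and -0.04 (upstream deletion, reversed). With library size alone Cdkn1a was -0.01 in the upstream deletion and 0.0 in the intron deletion interaction, both reversed. The Ccnd2 interaction passed with RLE factors (-0.25), library size alone (-0.29) and 20 kb (-0.27), and 2 interactions then passed, as on coverage. Of 28 ratios, 13 had an interval that left out 1, against 24 by total listed contacts, 25 with unlisted pairs at 0 and 24 on coverage; 2 of the 13 moved to the other side of 1 with an interval that left it out, Ccnd2 in the intron deletion control (1.27 by total listed contacts) and Ccnd3 there (0.692 with unlisted pairs at 0). Of the 15 whose interval held 1, such a move was made by 2 by total listed contacts, 9 with unlisted pairs at 0 and 2 on coverage. At an equal depth-scaled minimum the share of pairs found only with IL-2 was 68.8% for Cdk6, 29.9% for Ccnd2, 35.3% for Ccnd3, 4.55% for Cdkn1a and 17.7% for all pairs. The cause of these changes was not tested.

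With each library left out in turn, the IL-2 change ran from 0.31 to 0.64 for Cdk6, 0.11 to 0.25 for Ccnd2, 0.15 to 0.22 for Ccnd3 and -0.05 to 0.02 for Cdkn1a. The intron deletion difference ran from -0.49 (without its control, adjusted p = 6.56e-05) to 0.13 (without its IL-2 library) for Cdk6, -0.44 to -0.18 for Ccnd2, 0.08 to 0.18 for Ccnd3 and -1.25 to -1.16 for Cdkn1a. The upstream deletion difference ran from -0.01 to 0.33, 0.0 to 0.12, 0.07 to 0.11 and -0.02 to 0.07. Windows called ranged from 0 to 3 with IL-2, 1 to 3 in the intron deletion and 0 to 1 in the upstream deletion. Pairs called ranged from 1 to 17, 5 to 23 and 0 to 0, and bins from 0 to 53, 12 to 52 and 0 to 22. A left-out library leaves 1 residual degree of freedom, and the lone library of its genotype is assumed to vary like the others. Without 1 intron deletion library, the IL-2 and upstream deletion comparisons rest on WT and upstream deletion cells alone. The shares of all features called in these fits are not given here, so the counts are a description without a test. No paired analysis was possible because each genotype and treatment has 1 library; its table is marked replicate 2 in every case, the sample labels give no number, and any other replicate was not analysed here. Genotype is a term of the fit.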
